A study of Mus musculus with 8 samples.

Results

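Potassium channel genes were examined as the 93 protein-coding genes whose symbol begins with Kcn, with Kcnj8 left out, among 55385 genes in the table. RNA came from neural stem and progenitor cells (NSPCs) that were isolated by FACS from freshly dissociated mouse cortex at postnatal day 7. The iKO group carried Nestin-CreERT2, Ash2lf/f and tdTomato, and the WT group carried Nestin-CreERT2 and tdTomato without the floxed allele, with 4 libraries in each. CreERT2 is a Cre recombinase that becomes active with tamoxifen, and the Nestin promoter drives it in neural progenitors and, in some mouse lines, in other cells. The design text calls the libraries biological replicates. No source used here states the tamoxifen schedule, the sorting gate or how many animals each library holds. ASH2L belongs to the enzyme complexes that place methyl groups on lysine 4 of histone H3, which marks active promoters.

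Potassium channels set the resting potential and shape electrical firing. Voltage-gated pore subunits (Kcna to Kcnd, Kcnh, Kcnq and the silent Kcnf, Kcng, Kcns and Kcnv subunits) open on depolarization, inward rectifiers (Kcnj) and tandem-pore K2P channels (Kcnk) pass current near rest, and the Kcnma, Kcnn, Kcnt and Kcnu channels respond to intracellular calcium, sodium or pH. Auxiliary subunits (Kcnab, Kcne, Kcnip, Kcnmb) bind pore subunits and change their gating or trafficking. In postnatal cortex, radial glia and astrocytes rely on Kcnj and Kcnk channels for their negative resting potential and for potassium uptake, while Kv subunits are best known from neurons.

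The values are TPM, which correct a transcript's abundance for its length and for the size of its library, so levels can be compared between genes; read depth is unknown. Ash2l stood at 7.13 ± 0.714 TPM in iKO libraries and 17.6 ± 1.33 TPM in WT (SD, n = 4), and every iKO library lay below every WT library. Neural stem cell markers were detected in all libraries, and 12 of 12 listed markers were above 0 in both groups. Of the 11 tested, 3 rose and 5 fell, and the list summed to 3859 to 3943 TPM in iKO libraries and 4576 to 4675 TPM in WT, with no overlap. For comparison with these and the following counts, 20.7% of all tested genes rose and 31.9% fell (limma adjusted p under 0.05). Marker levels differed between the groups. Of 15 astrocyte markers 12 fell and 1 rose, with sums of 6328 to 6573 TPM in iKO libraries and 9168 to 9464 TPM in WT. Of 12 neuroblast markers 10 rose and 2 fell, with sums of 3089 to 3170 TPM in iKO libraries and 2837 to 2902 TPM in WT, and 6 of 13 tested mature neuron markers rose while 4 fell. Endothelial markers rose in 11 of 12 cases (1043 to 1108 TPM in iKO, 593 to 621 TPM in WT), and microglia markers fell in 8 of 11 and rose in 1 (635 to 662 TPM in iKO, 774 to 832 TPM in WT). Summed Y-linked genes stood at 53.9 to 73.4 TPM in iKO libraries and 135 to 163 TPM in WT. Blood cell markers summed to 721 to 840 TPM in iKO libraries and 70 to 81.1 TPM in WT, and nasal epithelium markers to 196 to 237 TPM in iKO libraries and 5.9 to 8.51 TPM in WT. With a score of Y-linked genes and Xist as a covariate in limma, 1 member (Kcnt1) still passed; that score separates the groups completely, so it and the genotype cannot be told apart. The part of the other differences in the channel results was not tested. In sorted bulk RNA, fewer cells of a type and less RNA per cell cannot be told apart.

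Channel transcripts were dominated by a few genes. Kcnip3, which encodes a calcium-binding protein that acts both as a Kv4 partner and as a transcriptional repressor, stood highest with 223, 220.1, 228 and 228 TPM in iKO, against 244, 246, 239 and 245 TPM in WT. Kcne1l, a Kcne-type auxiliary subunit gene, followed with 180.3, 186, 188 and 185 TPM in iKO, against 208, 204, 200.1 and 198 TPM in WT. All iKO libraries lay below all WT libraries for both genes. These genes together held 46.1% of all channel TPM in iKO libraries and 43.3% in WT. Averaged over all 8 libraries, 15 members reached 10 TPM, 41 lay between 1 and 10 TPM, 35 lay above 0 and under 1 TPM, and Kcnj1 and Kcng3 were listed at 0 in every library. After Kcnip3 and Kcne1l the order of mean levels was Kcnn2 (82.2 TPM), Kcnk10 (63.4 TPM), Kcnk1 (48 TPM) and Kcnj16 (44.9 TPM). Kcnk1 and Kcnj16 overlapped in iKO, where Kcnk1 ranged from 38.2 to 45.8 TPM and Kcnj16 from 42.4 to 45.2 TPM, but not in WT.

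Summed over the 93 members, channel TPM was 889.9 ± 5.7 in iKO and 1029 ± 8.36 in WT (SD, n = 4). Without Kcnip3 and Kcne1l the sum was 480.04 ± 6.4 TPM in iKO libraries and 583 ± 7.23 TPM in WT. The calcium- and sodium-activated class had the lowest iKO sum relative to WT among the classes, with 97.7 ± 2.41 TPM in iKO libraries and 143 ± 3.5 TPM in WT. That rank depends on 1 gene, Kcnt1, whose mean was 1.28 TPM in iKO and 18 TPM in WT. Inward rectifiers overlapped, with 72.5 ± 1.57 TPM in iKO libraries and 75 ± 3.47 TPM in WT. The Kcnq class also overlapped, with 19.6 ± 0.489 TPM in iKO libraries and 20.2 ± 0.781 TPM in WT.

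**Figure D1:**
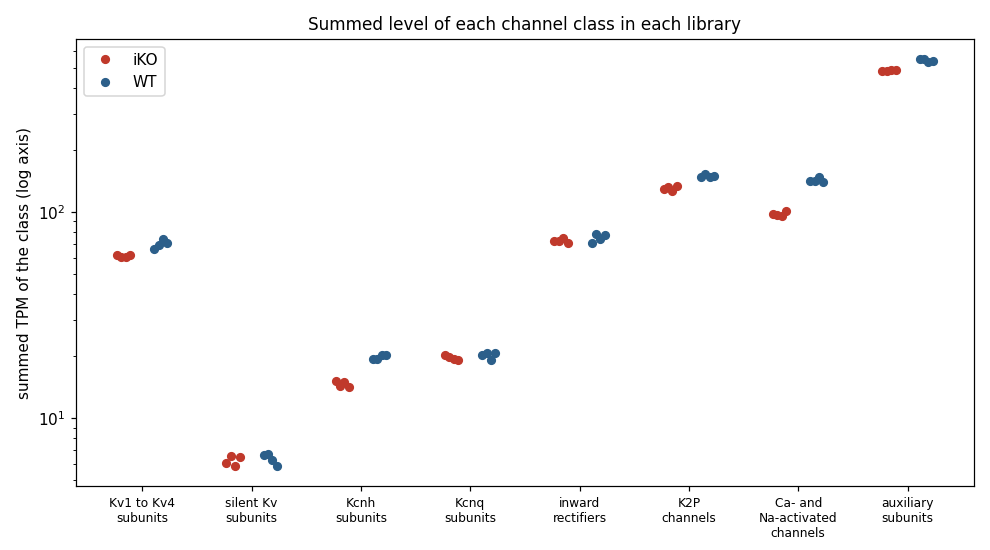
Summed TPM (log axis) of each channel class in each of the 4 iKO (red) and 4 WT (blue) libraries, 1 point a library. The calcium- and sodium-activated class lies at 95.1 to 101 TPM in iKO libraries and 140 to 148 TPM in WT, and the silent Kv, Kcnq and inward rectifier sums overlap between groups.

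More members fell than rose. In limma on log2(TPM + 1), fitted across all 16413 genes with at least 1 TPM in at least 4 libraries, 58 members were tested. At a Benjamini-Hochberg adjusted p under 0.05, 52.6% of all tested genes changed in either direction. Of the members, 7 (12.1%) rose, against 20.7% of all tested genes, and 26 (44.8%) fell, against 31.9% of all tested genes. The remaining 25 tested members did not pass, and 35 members were below the filter. Of the tested members, 4 met the filter only through the group where they were high: Kcna4, Kcnh4 and Kcnj6 had at least 1 TPM in every WT library and in no iKO library, and Kcnmb1 in every iKO library and in no WT library. These 4 therefore had to differ to be tested, and their calls carry that limit. The median log2 fold change was -0.19 for the tested members and -0.06 for all tested genes. Most changes were small: 22 of the 33 changed members moved by under 0.5 on the log2 scale in either direction. That is 66.7%, against 68.2% of all changed genes, and the 1 added to each TPM shrinks the change of low genes. Of the 33 changed members, 3 moved by 1 or more. Groups did not overlap for all 26 members that fell and for 6 of the 7 that rose; over all tested genes, every iKO library lay below every WT library for 29.9% and above for 19.2%. The split moved with scaling: 21.2% of changed members were higher without rescaling, 30.3% with trimmed mean of M values factors and 36.4% with quantile normalization, against 39.3%, 50.8% and 49.7% of all changed genes under the same scalings.

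**Figure D2:**
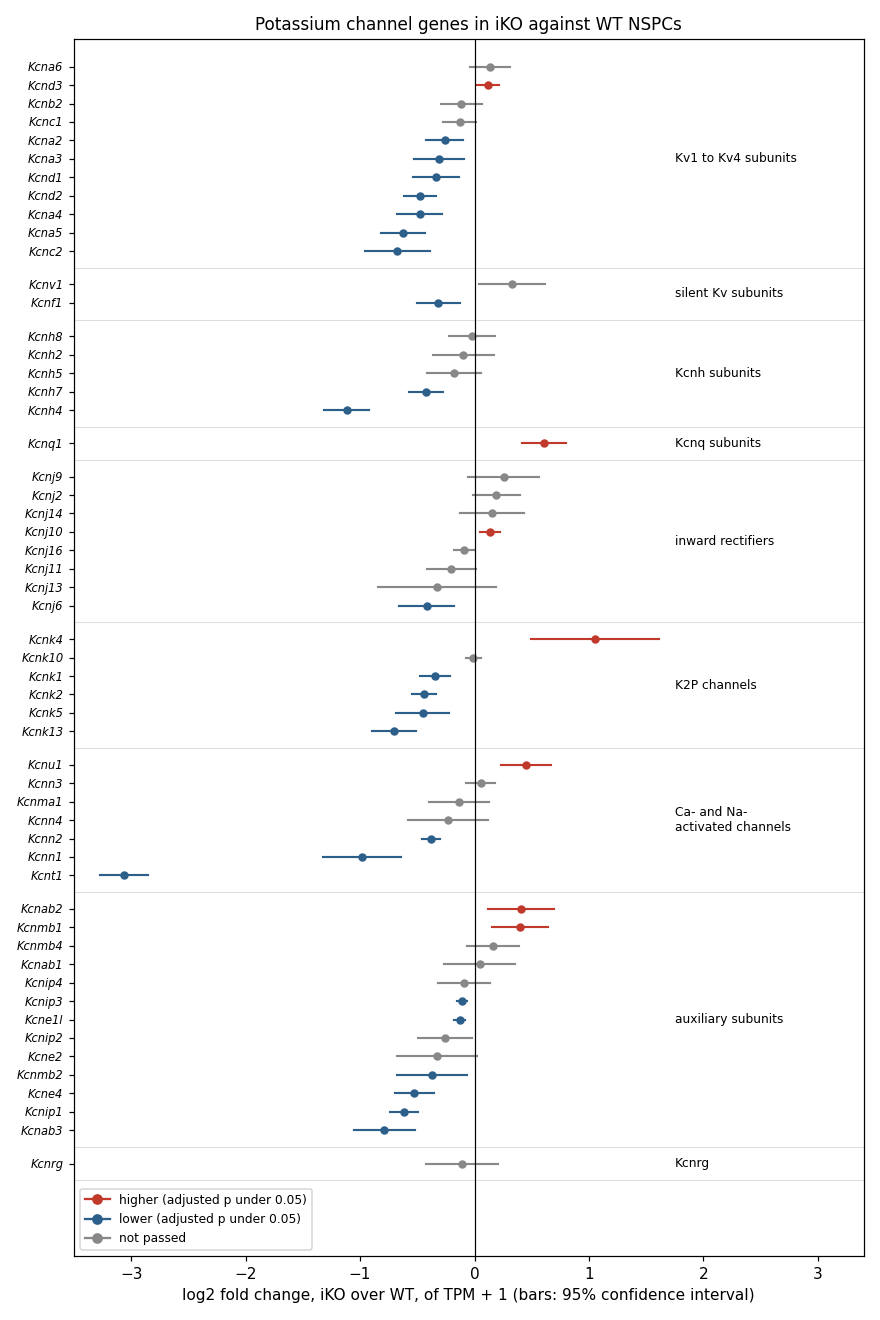
Log2 fold change (iKO over WT, of TPM + 1) of 54 of the 58 tested members by channel class, with the 95% confidence interval; red marks higher, blue lower and grey not passed. Kcnt1 stands apart at -3.07, and most of the 11 Kv1 to Kv4 members plotted are lower.

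Among calcium- and sodium-activated channels, 3 of 7 tested members fell and 1 rose. Kcnt1 encodes a sodium-activated potassium channel of neurons, in which gain-of-function mutations cause infantile epilepsy in humans. It had 1.33, 0.993, 1.22 and 1.56 TPM in iKO libraries 1 to 4, against 16.7, 19.6, 18.9 and 16.9 TPM in WT libraries 1 to 4. All iKO values were far below all WT values, at a log2 fold change of -3.07 (SE 0.0921, limma adjusted p = 4.21e-08), the 20th largest fall of all tested genes. The authors' deposited table gave -3.49 for Kcnt1. Its paralog Kcnt2 was low in both groups, at 0.922 ± 0.325 TPM in iKO libraries and 0.706 ± 0.109 TPM in WT (SD, n = 4; exact permutation p = 0.314).

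Kcnn1 and Kcnn2 encode small-conductance calcium-activated channels, which mediate afterhyperpolarization in neurons. Kcnn1 had 10.03, 5.36, 6.52 and 7.91 TPM in iKO, against 14.2, 15.2, 16.4 and 15.8 TPM in WT (log2 fold change -0.98, SE 0.151, limma adjusted p = 0.000606). Kcnn2, the most abundant pore subunit, had 69.2, 73.8, 69.2 and 73.5 TPM in iKO, against 94.7, 90, 95.9 and 91.4 TPM in WT (log2 fold change -0.38, limma adjusted p = 2.62e-05). Neither gene's groups overlapped, and iKO replicate 1 was the highest iKO library for Kcnn1. The third neuronal family member, Kcnn3, did not pass, at 8.88 ± 0.413 TPM in iKO libraries and 8.52 ± 0.399 TPM in WT (SD, n = 4), nor did Kcnn4 or Kcnma1, the large-conductance calcium-activated channel gene. Kcnn3 was called higher with quantile normalization. Kcnu1, whose channel is known from sperm, rose, with 4.5, 3.83, 4.96 and 5.18 TPM in iKO, against 3.44, 2.97, 3.14 and 2.85 TPM in WT (log2 fold change 0.45, limma adjusted p = 0.00359).

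**Figure D3:**
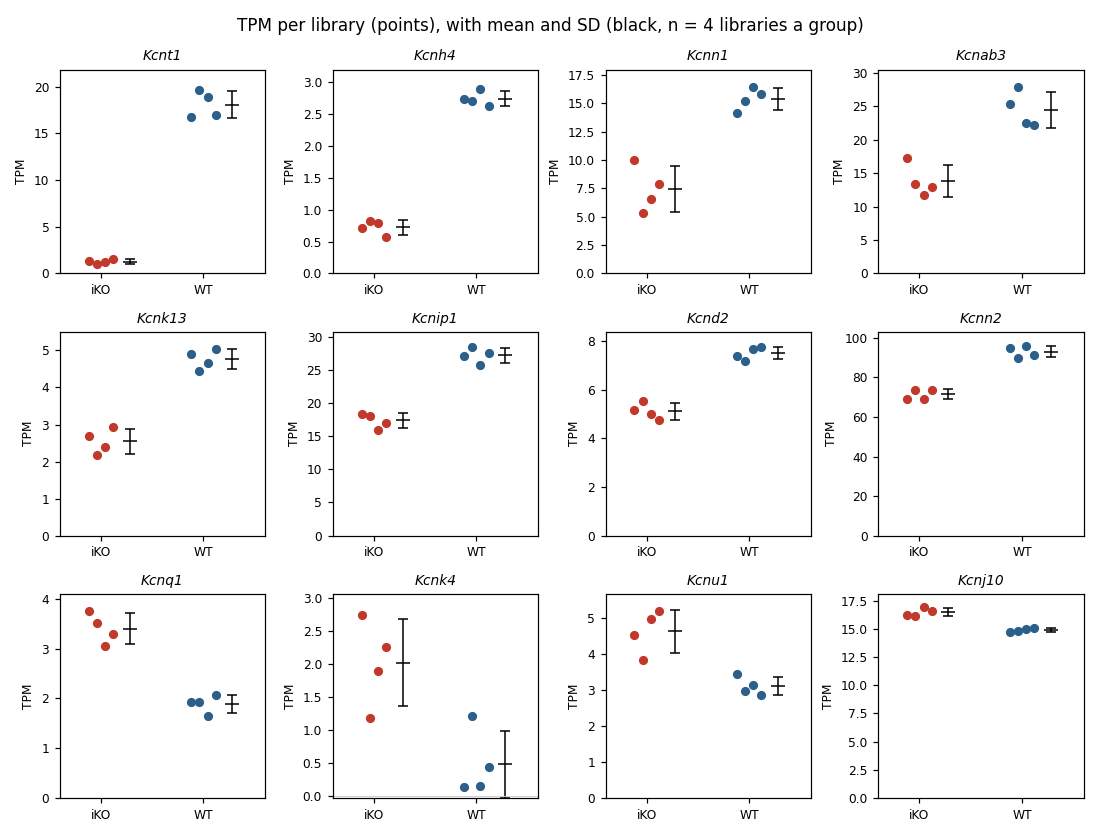
TPM in each library for 12 members, with points for the 4 iKO (red, left) and 4 WT (blue, right) libraries and black marks for mean and SD. Groups are separate for all but Kcnk4, where iKO replicate 2 (1.18 TPM) lies below WT replicate 2 (1.22 TPM).

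Of 13 tested Kv1 to Kv4 pore subunits, 8 fell, 1 rose and 4 did not pass. Kcna2, Kcna3, Kcna4 and Kcna5 encode Kv1 subunits. Kcna5 had 1.22, 0.965, 1.26 and 1.03 TPM in iKO, against 2.14, 2.23, 2.38 and 2.28 TPM in WT (log2 fold change -0.62, SE 0.0855, limma adjusted p = 0.000317). Kcna4 had 0.627, 0.728, 0.767 and 0.685 TPM in iKO, against 1.31, 1.44, 1.41 and 1.31 TPM in WT (log2 fold change -0.48, limma adjusted p = 0.00158). Kcna4 met the filter only through WT, with the limit given above. Kcna2 and Kcna3 fell by 0.26 and 0.31 on the log2 scale, and both calls were lost with quantile normalization. Kcna3 also did not pass without iKO replicate 2, iKO replicate 3 or WT replicate 4. Kcna6, the most abundant Kv1 gene, did not pass, with 13.9 ± 0.33 TPM in iKO libraries and 12.7 ± 1.51 TPM in WT (SD, n = 4); 39.6% of its exon bases in GENCODE M21 are shared with an antisense gene, so its value is uncertain. Kcna6 was called higher with both rescalings (trimmed mean factors and quantile normalization).

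Kcnc2, a fast-spiking interneuron channel gene, had 1.25, 0.744, 0.972 and 1.11 TPM in iKO, against 2.25, 2, 2.8 and 1.84 TPM in WT (log2 fold change -0.67, limma adjusted p = 0.0018). Kcnb2 and Kcnc1 did not pass. The Kv4 genes Kcnd1, Kcnd2 and Kcnd3 encode the A-type current, which inactivates fast and delays firing. Kcnd2 had 5.14, 5.55, 4.98 and 4.75 TPM in iKO, against 7.39, 7.18, 7.65 and 7.74 TPM in WT (log2 fold change -0.48, limma adjusted p = 0.000204), and Kcnd1 fell by 0.34 on the log2 scale, a call lost with quantile normalization. Kcnd3 had 16.9, 16.3, 16.2 and 17.5 TPM in iKO, against 15.7, 15.3, 15.4 and 15 TPM in WT, a small rise (log2 fold change 0.12, limma adjusted p = 0.0426). That call was lost without any one of the 8 libraries (adjusted p of 0.0509 to 0.109), with no filter and with the replicate block. It held with trimmed mean factors (0.18, limma adjusted p = 0.00596) and quantile normalization (0.19, limma adjusted p = 0.00418). The authors' deposited table also called Kcnd3 higher, at 0.23.

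Silent Kv subunits do not form channels alone and join Kv2 subunits. Only 2 of 10 passed the filter. Kcnf1 had 1.86, 2.01, 1.68 and 2 TPM in iKO, against 2.35, 2.81, 2.77 and 2.47 TPM in WT (log2 fold change -0.32, limma adjusted p = 0.0112), which did not pass after quantile normalization (adjusted p = 0.0756). Kcnv1 did not pass, with 1.29 ± 0.283 TPM in iKO libraries and 0.821 ± 0.197 TPM in WT (SD, n = 4; limma adjusted p = 0.0548), and was called higher with both rescalings and without WT replicate 1.

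Kcnh genes encode the ether-a-go-go group. Kcnh4, whose channels are expressed mainly in brain, had 0.711, 0.829, 0.796 and 0.567 TPM in iKO, against 2.73, 2.69, 2.89 and 2.62 TPM in WT. The log2 fold change was -1.12 (SE 0.0868, limma adjusted p = 9.84e-06). Kcnh4 met the filter only through WT, as given above, so its groups had to differ for it to be tested. The pseudocount shrinks the change at this level: Kcnh4 stands at -1.87 in the authors' deposited table. Kcnh7 averaged 5.42 ± 0.29 TPM in iKO libraries and 7.62 ± 0.486 TPM in WT (SD, n = 4) and fell by 0.43 on the log2 scale, whereas the authors' deposited table gave -0.14 and did not call it (adjusted p = 0.126). Kcnh2, Kcnh5 and Kcnh8 did not pass.

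Kcnq1, known as a channel of heart and epithelia that pairs with Kcne subunits, had 3.77, 3.53, 3.05 and 3.29 TPM in iKO, against 1.93, 1.94, 1.64 and 2.07 TPM in WT (log2 fold change 0.61, SE 0.0856, limma adjusted p = 0.000375). The antisense transcript Kcnq1ot1, with which Kcnq1 shares 2.96% of its exon bases, fell, with 2.18 ± 0.059 TPM in iKO libraries and 2.64 ± 0.0464 TPM in WT (SD, n = 4; log2 fold change -0.20, limma adjusted p = 0.0349). Strand-aware counting is not stated, so reads of the pair cannot be told apart where they overlap. Kcnq3, a subunit of the neuronal M current, was below the filter, at 0.417 to 0.588 TPM in iKO libraries and 0.718 to 0.937 TPM in WT.

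Among 8 tested inward rectifiers 1 rose, 1 fell and 6 did not pass. Kcnj10 encodes the main glial inward rectifier, which clears extracellular potassium in astrocytes. It had 16.3, 16.2, 17 and 16.6 TPM in iKO, against 14.8, 14.8, 15 and 15.1 TPM in WT (log2 fold change 0.14, SE 0.0383, limma adjusted p = 0.0149). Every iKO library lay above every WT library, while the summed astrocyte markers were lower in iKO as given above. Its partner Kcnj16 did not pass, with 43.2, 43, 45.2 and 42.4 TPM in iKO, against 44, 47, 46.5 and 47.8 TPM in WT (limma adjusted p = 0.0678). It was called lower without WT replicate 1 (adjusted p = 0.0267) and without iKO replicate 3 (adjusted p = 0.0489). Kcnj6, a G protein-gated channel gene of neurons, had 0.483, 0.66, 0.809 and 0.73 TPM in iKO, against 1.42, 1.16, 1.08 and 1.26 TPM in WT (log2 fold change -0.42, limma adjusted p = 0.00889), and the authors' deposited table did not call it (adjusted p = 0.187). Kcnj6 met the filter only through WT, with the limit given above. Kcnj13 stood at 2.3 to 4 TPM in iKO libraries and 3.16 to 7.13 TPM in WT. Kcnj13 shares 49.1% of its exon bases with Gigyf2 on the other strand, so its value is uncertain.

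Of 6 tested K2P genes, 4 fell, 1 rose and 1 did not pass. Kcnk1, which shares 8.01% of its exon bases with an antisense gene, had 38.2, 45.8, 40.3 and 44.6 TPM in iKO, against 52.3, 56.2, 52.8 and 53.6 TPM in WT (log2 fold change -0.34, limma adjusted p = 0.00112). Its product is a weakly inwardly rectifying leak channel found in astrocytes. Kcnk2, a mechanosensitive leak channel gene that shares 12.2% of its exon bases with an antisense gene, had 16.5, 15.8, 16.1 and 17.6 TPM in iKO, against 22.1, 23.6, 22.8 and 22.3 TPM in WT (log2 fold change -0.44, SE 0.0455, limma adjusted p = 5.47e-05). Its close relative Kcnk10 did not pass, with 64.3, 64.7, 61.5 and 62.3 TPM in iKO, against 64.4, 63.3, 62.7 and 64.1 TPM in WT, overlapping groups and a 95% interval of -0.07 to 0.05 for the log2 fold change. Kcnk5, an alkaline-activated channel gene, had 0.834, 0.687, 0.922 and 1.01 TPM in iKO, against 1.43, 1.66, 1.35 and 1.78 TPM in WT (log2 fold change -0.45, limma adjusted p = 0.00518).

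Kcnk13 encodes a halothane-inhibited channel that in brain is best known from microglia. It had 2.7, 2.17, 2.39 and 2.94 TPM in iKO, against 4.91, 4.46, 4.66 and 5.05 TPM in WT (log2 fold change -0.70, SE 0.0861, limma adjusted p = 0.000157). Microglia markers were lower in the same libraries, as given above, and their part in this result was not tested. Kcnk4, a mechanosensitive channel gene of neurons, rose, with 2.75, 1.18, 1.9 and 2.27 TPM in iKO, against 0.141, 1.22, 0.153 and 0.437 TPM in WT (log2 fold change 1.05, SE 0.246, limma adjusted p = 0.00631). WT replicate 2 overlapped the iKO range, and without it the log2 fold change was 1.26. The mean signal of Kcnk4 in the authors' deposited table was low, at 9.12. Kcnk4 shares 13.1% of its exon bases with Catsperz on the same strand, which stood at 0.5 ± 0.148 TPM in iKO libraries and 0.442 ± 0.337 TPM in WT (SD, n = 4).

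The auxiliary subunits had 6 of 13 tested members lower and 2 higher. Kcnip1, which binds Kv4 subunits and raises their surface level, had 18.4, 18, 16 and 17 TPM in iKO, against 27.1, 28.4, 25.7 and 27.6 TPM in WT (log2 fold change -0.62, SE 0.0537, limma adjusted p = 1.9e-05). Kcnab3, a Kv1 beta subunit gene, had 17.3, 13.3, 11.8 and 12.9 TPM in iKO, against 25.3, 27.9, 22.5 and 22.2 TPM in WT (log2 fold change -0.79, limma adjusted p = 0.000493). Kcnab2, another Kv1 beta subunit gene, rose, with 6.23, 6.27, 5.18 and 5.55 TPM in iKO, against 4.54, 4.49, 4.77 and 2.93 TPM in WT (log2 fold change 0.41, limma adjusted p = 0.0254). Kcnab2 no longer passed when iKO replicate 1 (adjusted p = 0.0639) or iKO replicate 2 (adjusted p = 0.0644) was left out. Kcnab1 did not pass.

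Kcne4, an inhibitory partner of Kv1 and Kcnq channels, had 5.92, 6.34, 6.94 and 5.82 TPM in iKO, against 9.21, 8.59, 10.4 and 9.65 TPM in WT (log2 fold change -0.53, limma adjusted p = 0.000383). The abundant Kcnip3 and Kcne1l fell by 0.11 and 0.13 on the log2 scale (limma adjusted p = 0.00111 and 0.00116), and both calls were lost with trimmed mean factors (adjusted p = 0.0949 and 0.056). Kcnmb1, the beta subunit of smooth muscle large-conductance channels, had 1, 1.28, 1.46 and 1.27 TPM in iKO, against 0.63, 0.775, 0.585 and 0.847 TPM in WT (log2 fold change 0.40, limma adjusted p = 0.0122). Kcnmb1 met the filter only through iKO, with the limit given above. Kcnmb2 fell by 0.37 on the log2 scale (limma adjusted p = 0.0444). That call was lost with both rescalings and without any one library other than WT replicate 1 or WT replicate 4. Kcnmb4, the neuronal beta subunit gene, which shares 20.8% of its exon bases with the antisense gene Kcnmb4os2, did not pass, at 20.03 ± 2.34 TPM in iKO libraries and 17.8 ± 1.97 TPM in WT (SD, n = 4). Kcnrg, which encodes a regulator of Kv1 assembly and no channel, also did not pass, with 3.07, 2.83, 2.12 and 3.11 TPM in iKO, against 4.09, 3, 2.51 and 2.78 TPM in WT.

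Of the 35 members below the filter, 33 were above 0 in some library and were compared on log2(TPM + 1) by exact permutation, two-sided. Of these, 9 reached the smallest p this design allows (unadjusted exact permutation p = 0.0286), 3 higher and 6 lower in iKO. None of the 33 passed after Benjamini-Hochberg adjustment over them, and for those 9 the adjusted exact p was 0.105. The smallest p this design allows left little room to pass, so this does not show that they were unchanged. Over all genes below the filter that were above 0 somewhere, every iKO library lay above every WT library for 5.02% and below for 8.62%. The 3 higher genes were Kcng1 (1.04 ± 0.106 TPM in iKO, 0.581 ± 0.0789 TPM in WT), Kcns2 (0.861 ± 0.0518 TPM in iKO, 0.492 ± 0.0822 TPM in WT) and Kcnq5 (0.408 ± 0.0756 TPM in iKO, 0.155 ± 0.0203 TPM in WT; SD, n = 4 for each). The 6 lower genes were Kcna1, Kcnq3, Kcns1, Kcnh3, Kcnj4 and Kcnk6. Kcna1, the axonal Kv1 gene of episodic ataxia, had 0.649, 0.716, 0.816 and 0.712 TPM in iKO, against 1.23, 0.96, 1.1 and 1.48 TPM in WT. Kcns1 stood at 0.469 ± 0.0884 TPM in iKO libraries and 1.16 ± 0.141 TPM in WT (SD, n = 4). In limma with no filter, Kcng1, Kcns2 and Kcnq5 were called higher and Kcna1, Kcnk6, Kcnq3 and Kcns1 lower. Kcnh3 and Kcnj4 were not called. Of all genes tested that way, 12.7% were called higher and 19.5% lower.

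Since a ratio of genes within a library does not depend on scaling, ratios are given for 6 pairs of family members; the pairs were chosen after their values were seen, so they are a description with no test. In all 6 pairs the groups did not overlap. Kcnd2 per Kcnd3 stood at 0.306 ± 0.0286 in iKO and 0.488 ± 0.0222 in WT (SD, n = 4). Kcnn2 per Kcnn3 stood at 8.07 ± 0.625 in iKO and 10.9 ± 0.534 in WT. Kcnk2 per Kcnk10 stood at 0.261 ± 0.0157 in iKO and 0.357 ± 0.0135 in WT. Kcnj10 per Kcnj16, which form a heteromeric glial channel, was the one higher in iKO among these 6, at 0.38 ± 0.00815 in iKO and 0.322 ± 0.00974 in WT. Kcnip1 per Kcnip3 stood at 0.0773 ± 0.00596 in iKO and 0.112 ± 0.00329 in WT. Kcnt1 per Kcnt2 stood at 1.67 ± 1.1 in iKO and 26.2 ± 5.9 in WT. Kcnt2 was below the filter, and its log2 TPM ratio of 0.38 stood against -0.40 in the authors' deposited table. The size of this last ratio is therefore uncertain.

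**Figure D4:**
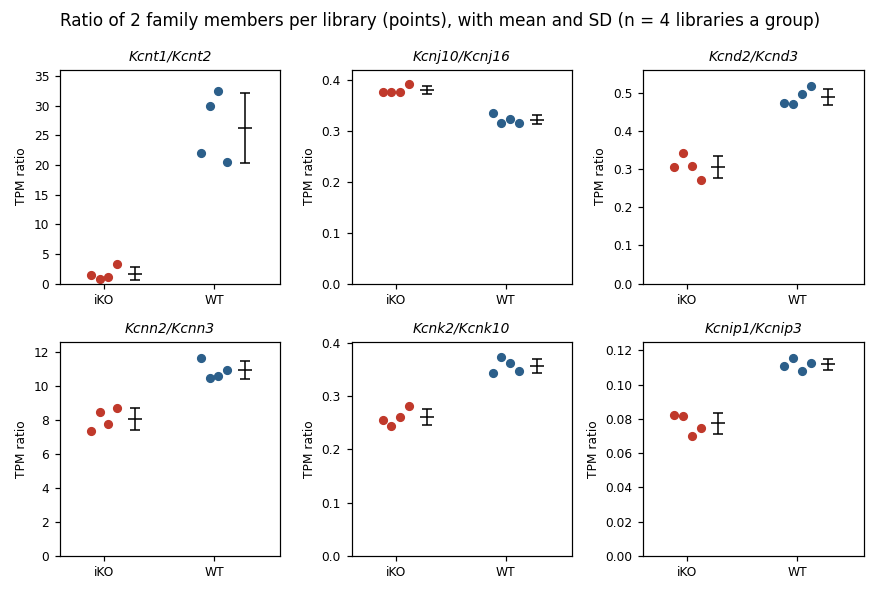
Ratio of TPM between 2 family members in each library, with points for the 4 iKO (red, left) and 4 WT (blue, right) libraries and black marks for mean and SD. Kcnj10 per Kcnj16 is higher in every iKO library, and the other ratios are lower in every iKO library.

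Other genes of potassium handling, whose symbols do not begin with Kcn, were taken from a list of 38, of which 31 were tested. Of these 3 rose, 15 fell and 13 did not pass (median log2 fold change -0.11), against 20.7% higher and 31.9% lower over all tested genes. With trimmed mean factors 5 rose and 10 fell, against 26.4% higher and 25.5% lower over all tested genes with the same factors. Lgi1, whose secreted product is linked to Kv1 channels and epilepsy, had 5.24, 3.66, 4.48 and 5.04 TPM in iKO, against 11.5, 10.9, 11.3 and 10.8 TPM in WT (log2 fold change -1.12, limma adjusted p = 1.38e-05). Dpp6, a Kv4 partner gene, had 15.8, 15.8, 15.2 and 16.1 TPM in iKO, against 22.2, 22.3, 21.5 and 21.1 TPM in WT (log2 fold change -0.44, limma adjusted p = 2.19e-05). None of these groups overlapped. The potassium-chloride cotransporter gene Slc12a7 had 12.4, 12.5, 12.5 and 10.7 TPM in iKO, against 18.4, 20.1, 20.6 and 19 TPM in WT (log2 fold change -0.66, limma adjusted p = 3.09e-05). The kinase gene Sgk1 had 97.8, 93.2, 103 and 98 TPM in iKO, against 147, 157, 151 and 149.6 TPM in WT (log2 fold change -0.62, limma adjusted p = 1.26e-06). Dtna, a gene of the complex that anchors channels in astrocyte endfeet, had 159.6, 176, 173 and 165 TPM in iKO, against 219, 218, 219 and 228 TPM in WT (log2 fold change -0.39, limma adjusted p = 1.48e-05). Slc12a5 (limma adjusted p = 0.0498) and Lrrc55 rose. Ank2 was called lower here at -0.08, with overlapping groups. The authors' deposited table called Ank2 higher, at 0.11 (adjusted p = 2.19e-06 there), so its direction is uncertain.

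The authors' deposited comparison gave a fold change for 91 members and called 11 of them higher and 27 lower. Over all genes with a fold change, that comparison called 17.1% higher and 16.7% lower. It shared 7 higher and 23 lower calls with limma on TPM. Both comparisons come from the same libraries. A further 2 higher (Kcng1 and Kcns2) and 4 lower (Kcna1, Kcnk6, Kcnq3 and Kcns1) calls there were of members below the filter here. Kcna3, Kcnh7 and Kcnj6 were lower here and not called there. Kcnj2 and Kcnv1 were called higher there and, without rescaling, did not pass here; both were called higher with both rescalings.

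For 70 members with a deposited mean signal of at least 10, the log2 ratio of mean TPM lay a median of 0.07 below the deposited fold change, and the sign differed for 9 members. Kcnh3 and Kcnt2 differed by more than 0.5. Kcnh3 had a log2 TPM ratio of -0.61, against 0.35 in the authors' deposited table, and Kcnt2 had 0.38, against -0.40 there. Kcnq5, with a mean signal of 9.7, was higher in every iKO library in TPM and had a deposited log2 fold change of 0.04.

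**Figure D5:**
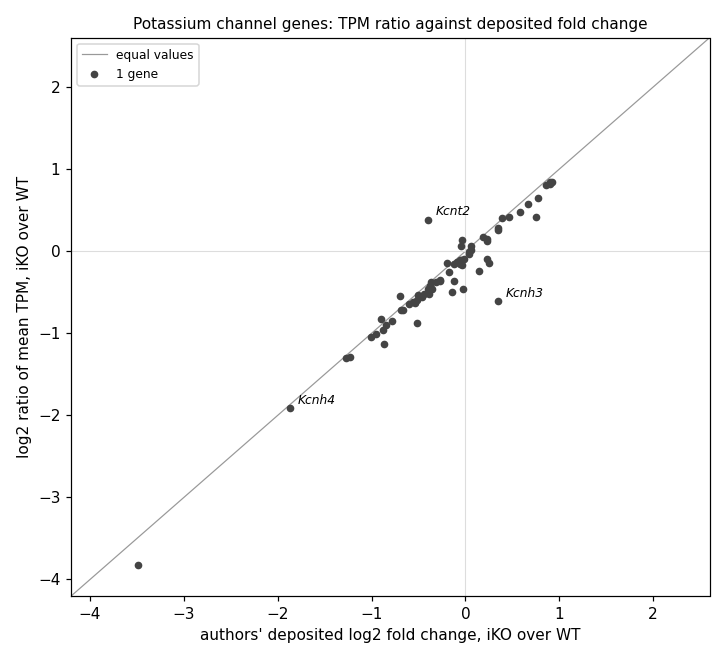
Log2 ratio of mean TPM (iKO over WT) against the authors' deposited log2 fold change, 1 point a gene for 70 members, with the line of equal values. Kcnh3 (-0.61 and 0.35) and Kcnt2 (0.38 and -0.40) lie farthest from the line.

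Promoters were taken from RefSeq (GRCm38.p6) as 250 bases before to 50 after each listed start; 68 of the 93 members had an entry. CG dinucleotides were counted because ASH2L complexes are known to act at CG-rich promoters. The median count per promoter was 11 for the 5 of 7 higher members with an entry, 13.9 for 20 of 26 lower members, 11 for 19 of 25 that did not pass and 20 for 11359 tested genes of the whole table. Over the whole table the median was 20 for higher and 19.5 for lower tested genes. Counts ran from 1 to 25 among the higher members and from 3 to 37 among the lower members. As examples from these ranges, 1 promoter of Kcnab2, which rose, holds 25 CG, and 1 promoter of Kcnn1, which fell, holds 13. Kcnab2 has 3 listed starts and Kcnn1 has 2. A relation of CG count to direction was not tested. Below are the promoters of the largest fall and the largest rise among members with an entry. They run 5′ to 3′ on the gene's strand, with each CG in capitals. Kcnh4 lies at chr11:100759729-100760028 on the minus strand and holds 23 CG, a count that 21.5% of the 32851 listed promoters reach. Kcnk4 lies at chr19:6934466-6934765 on the minus strand and holds 5 CG, which 62% of listed promoters reach.
Kcnh4: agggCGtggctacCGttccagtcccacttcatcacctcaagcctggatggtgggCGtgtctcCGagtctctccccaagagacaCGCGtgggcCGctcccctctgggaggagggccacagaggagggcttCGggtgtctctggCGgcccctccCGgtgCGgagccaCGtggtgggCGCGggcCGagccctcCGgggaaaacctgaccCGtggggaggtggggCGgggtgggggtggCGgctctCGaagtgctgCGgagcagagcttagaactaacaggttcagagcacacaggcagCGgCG
Kcnk4: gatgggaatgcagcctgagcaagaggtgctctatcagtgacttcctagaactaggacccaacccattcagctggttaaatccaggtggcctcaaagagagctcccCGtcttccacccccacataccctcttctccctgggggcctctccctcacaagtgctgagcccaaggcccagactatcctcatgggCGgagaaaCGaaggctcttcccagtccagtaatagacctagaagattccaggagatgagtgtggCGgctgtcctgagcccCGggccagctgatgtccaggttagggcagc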

How the data were processed

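The tables deposited by the authors were used. The TPM values, per the file headers and name, were computed by the authors and sum to 1000000 in each library; no source used here names the aligner, quantifier or genome build. Smart-Seq2 amplification of total RNA is stated per the labels' protocols, and strand-aware counting is not. The authors' deposited comparison holds, per the file headers, a mean normalized signal, a log2 fold change (iKO over WT), the standard error of that value, p-values and a test score. All 8 sample columns were matched to labels.

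Groups and replicate numbers came from sample titles. Members were tested with limma 3.58.1 (R 4.3.3; mean-variance trend, robust moderation, two-sided) on log2(TPM + 1) over all genes with at least 1 TPM in at least 4 libraries, with Benjamini-Hochberg adjustment over 16413 genes. A fold change on this scale understates the change of low genes. Members below the filter were compared by exact permutation over 70 assignments. The procedure was checked on simulated data. Exon overlaps came from GENCODE M21 and scipy 1.17.1 and matplotlib 3.10.9 were used. The members and lists were chosen with earlier results of these data known. Per-library values were given for up to 12 largest rises and 12 largest falls among called members, the 6 most abundant, and the smallest p of each class, and for up to 6 partners by p; others named were chosen after seeing their values. Alternatives were quantile normalization, unweighted TMM (trimmed mean of M values) scaling, pseudocounts of 0.1 and 5, a minimum mean TPM of 5, no filter, the replicate block, a sex score (mean log2(TPM + 1) of 4 Y-linked genes minus Xist) as covariate, each library left out and the deposited comparison. A few genes are counted in the totals and not reported here.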

Additional observations from a re-analysis of the deposited data

Results flagged for a closer look

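Among 58 groups of 4 libraries (29 named members in iKO and in WT), 1 held a library far from the others by Dixon's test. Kcnab2 stood at 2.93 TPM in WT replicate 4, against 4.49 to 4.77 TPM in the other WT libraries. Chance alone flags about 1 in 20 groups. Without WT replicate 4 the Kcnab2 log2 fold change was 0.28 (limma adjusted p = 0.0231).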

How the results depend on the processing

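The 7 higher and 26 lower members became 5 to 7 and 25 to 28 with a library left out. The 3 higher and 15 lower partners became 2 to 4 and 13 to 15. A mean TPM of at least 5 tested 21 members and called 2 higher and 13 lower, with 1 partner higher. Over all 11638 genes tested with that minimum, 24.9% were called higher and 34.7% lower. Higher members numbered 12 with quantile normalization and 11 in the deposited comparison over all members, where 7 partners were higher and 12 lower; trimmed mean factors gave 5 partners higher and 10 lower. The sex score, which separates the groups completely (-0.82 to -0.26 in iKO, 0.57 to 1.01 in WT), left 0 members higher (2 at an unadjusted p under 0.05 in limma) and 1 lower (Kcnt1; 7 unadjusted), 0 partners higher (1 unadjusted) and 1 lower, and Ash2l at -1.07 (adjusted p = 0.142), so score and genotype cannot be told apart. Signs turned for Kcnab2 (-0.20), Kcnk5 (0.12) and Kcnj16 (0.015) with the sex score. Kcnk10, which did not pass, stood at 0.058 with trimmed mean factors, 0.040 in the deposited table and between -0.021 and 0.0033 with a library left out (above 0 without iKO replicate 3), and Kcnrg, which also did not pass, at 0.019 with quantile normalization and between -0.18 and 0.00085 with a library left out (above 0 without WT replicate 1). The cause was not tested. Same-numbered libraries did not deviate together (correlations of -0.0445 to 0.00069). That cannot exclude a weak shared effect, so whether the numbers pair samples is unknown. The replicate block gave 6 members higher and 25 lower. Pseudocounts left the counts at 7 and 26, and no filter gave 9 and 29. For the 9 genes below the filter whose groups do not overlap, pseudocounts of 0.1 and 5, chosen after seeing the data, cannot change the exact p, so they say nothing about stability. Read depth is unknown, so low TPM carry no counting interval.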

Other observations

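Noncoding genes with Kcn symbols are outside the 93 members. Kcnd3os stood at 1.56 ± 0.582 TPM in iKO libraries and 1.46 ± 0.365 TPM in WT (SD, n = 4) and did not pass. Kcnab3os, Kcnmb4os1 and Kcnmb4os2 were below the filter.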
